A study of Homo sapiens with 6 samples.

Results

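Glucocorticoid receptor (GR) peaks were described at 6 genes that govern steroid signalling itself: the receptor genes NR3C1 and NR3C2, the chaperone genes FKBP4 and HSP90AA1, and the cortisol-converting genes HSD11B1 and HSD11B2. A peak was counted for a gene when its centre lay in a window of about the gene body and 50 kb on each side, in hg19 coordinates. The windows were chromosome 5, 142.60 to 142.87 Mb, for NR3C1, chromosome 4, 148.95 to 149.42 Mb, for NR3C2, chromosome 12, 2.85 to 2.97 Mb, for FKBP4, chromosome 14, 102.49 to 102.66 Mb, for HSP90AA1, chromosome 1, 209.81 to 209.96 Mb, for HSD11B1, and chromosome 16, 67.41 to 67.53 Mb, for HSD11B2. They held 34 of the 116356 peaks of the 12 deposited lists, which merged into 13 of 43713 sites.

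The groups were MR/GR cells with dexamethasone, GR cells with dexamethasone, MR/GR cells with vehicle (DMSO) and GR cells with vehicle. Dexamethasone is a synthetic glucocorticoid and was given at 100 nM for 2 hr, and all groups were immunoprecipitated with the same antibody against GR. MR/GR cells and GR cells are stable lines made from U-2OS, a human osteosarcoma line, and the first of these lines co-expresses MR, the mineralocorticoid receptor. Each combination of receptors is represented by 1 line, and the labels give neither the constructs and promoters behind the receptors nor the number of clones. Each group is 1 deposited sample with 3 numbered peak lists, and since the labels do not say whether these came from separate cultures, n counts lists, and a p-value sets a difference against list-to-list spread alone, possibly technical.

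GR, the product of NR3C1, and MR, the product of NR3C2, are held ready for hormone in the cytoplasm by complexes with HSP90 and its partners, among them FKBP52, the product of FKBP4. After hormone binding they move to the nucleus and bind DNA at related elements. The enzyme encoded by HSD11B1 regenerates active cortisol from cortisone, and the one encoded by HSD11B2 inactivates cortisol and so shields MR from it, as is known best in the kidney. Glucocorticoids are known to lower the NR3C1 transcript in many cell types. Transcripts were not measured in these samples, so the values below say where GR was called on DNA and nothing about the output of the genes.

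Treated lists held 3713 to 10459 peaks in the MR/GR cell and 26191 to 37650 in the GR cell, and vehicle lists held 11 to 132 in the MR/GR cell and 122 to 238 in the GR cell. Lists carry positions only, the read depth is unknown, and a place without a listed peak may have been unbound or too weak to be called. Within a list all peaks, or in GR-cell treated list 2 99.997% of them, had 1 width, from 280 to 304 bp in treated MR/GR-cell lists and from 354 to 424 bp in treated GR-cell lists. By the labels, the input DNA of the MR/GR cell was from vehicle-treated cells and that of the GR cell from dexamethasone-treated cells. Which input each list was called against is not given in the sources used here, and if each line had its own, that difference and the line cannot be told apart. Because list length differs between the lines, counts are given as listed and also per 10000 peaks of the list.

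All peaks in the windows came from treated cells. Dexamethasone lists held 6 peaks of 20832 in the MR/GR cell and 28 of 94753 in the GR cell, and vehicle lists held 0 of 183 in the MR/GR cell and 0 of 588 in the GR cell. The vehicle peak closest to any of the windows lay 149 kb from that of HSD11B2, was in 1 GR-cell vehicle list, and had no treated peak of either line over it. The closest MR/GR-cell vehicle peak lay 1.47 Mb from the HSD11B1 window. The map of peaks by list shows the whole pattern: sites at NR3C1, NR3C2 and FKBP4 only in GR-cell lists, none at HSP90AA1, and sites of both lines at HSD11B1 and HSD11B2.

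**Figure D1:**
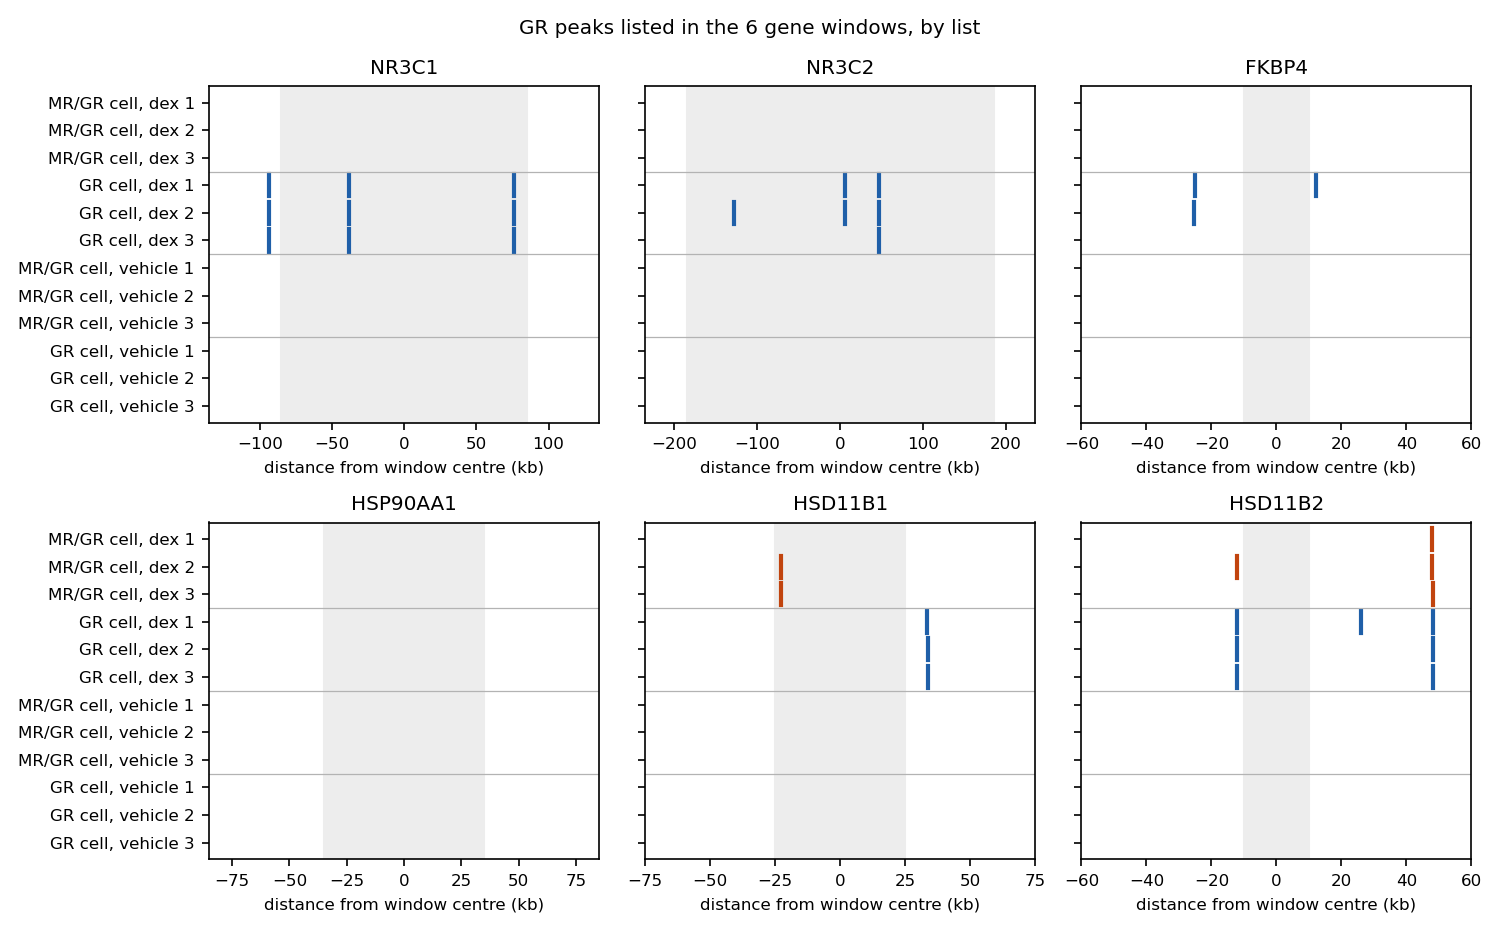
Peaks of all 12 lists in the 6 windows. The x axis is the distance in kb from the window's centre, each row is 1 list, each mark is the centre of 1 peak (width not to scale), and the grey band is the window without its outer 50 kb on each side. Vehicle rows are empty in every window, and MR/GR-cell rows hold peaks in the HSD11B1 and HSD11B2 windows only.

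At NR3C1, GR was called at 3 places in the treated GR cell and nowhere in the treated MR/GR cell. The MR/GR-cell lists held 0, 0 and 0 peaks, against 3, 3 and 3 in the GR-cell lists. The 3 sites were chromosome 5, 142641325 to 142641825, 142696813 to 142697340 and 142810770 to 142811300, and each was in 3 of 3 GR-cell lists. They stood 55.5 and 114 kb apart. The first lay in the outer 50 kb of the low-coordinate end and the others in the inner part, the last 8.97 kb inside its high-coordinate end, which is the side where transcription of NR3C1 starts. The lists of the lines did not overlap (difference of -3 peaks per list with no spread in either line, exact permutation p = 0.1, two-sided, the smallest that 3 lists against 3 allow, and 0.170 after adjustment over all windows of this length). Such a separation, with every MR/GR-cell list below every GR-cell list, was found in 58.8% of all 11438 windows of 270 kb, and 28.2% of them had peaks in all 3 GR-cell lists but none in the MR/GR cell. Per 10000 listed peaks the GR-cell lists had 0.797, 0.970 and 1.15 there. At their mean rate the MR/GR-cell lists would have held 2.02 peaks in all, and held 0, as they did in 52.4% of all windows of 270 kb. That share takes in windows without any treated site, 15.8% of the 11438.

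At NR3C2, the MR/GR-cell lists likewise held 0, 0 and 0 peaks, against 2, 3 and 1 in the GR-cell lists. Every GR-cell list was higher, with the lowest count in list 3. The difference was -2 peaks per list (SE 0.577, exact permutation p = 0.1, two-sided, adjusted p = 0.137), and 73.2% of all 6565 windows of 470 kb were separated in this way. A single site, chromosome 4, 149231786 to 149232230, was in all 3 GR-cell lists. A site 41.8 kb below it, 149189987 to 149190407, was in GR-cell lists 1 and 2. The remaining site was in GR-cell list 2 alone. All 3 sites lay in the inner part of the window. The NR3C2 window was the longest of the 6 and, apart from that of HSP90AA1, the most thinly bound: it held 6.38 sites per Mb, and 78.4% of all windows of its length held at least as many sites. At the GR cell's mean rate, 1.31 peaks would have fallen there over the MR/GR-cell lists, and 37.6% of all windows of 470 kb held no MR/GR-cell peak. That share takes in the 10.4% of windows without any treated site.

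Among the chaperone genes, FKBP4 had weakly reproduced sites and HSP90AA1, which encodes the inducible cytosolic form of HSP90, had none. FKBP4 had 0, 0 and 0 peaks in the treated MR/GR-cell lists, against 2, 1 and 0 in the treated GR-cell lists. These counts overlap at 0, and the difference of -1 (SE 0.577) gave an exact permutation p = 0.4, two-sided. It was -0.5 without GR-cell list 1 (exact permutation p = 0.4) and -1.5 without GR-cell list 3 (exact permutation p = 0.1, the smallest possible then). The site in more than 1 list, chromosome 12, 2884600 to 2885063, was in GR-cell lists 1 and 2, the other in list 1 alone, and both lay in the outer 50 kb of the window. No site of FKBP4 was in all 3 lists of a line. Over the genome, 22935 of the 43713 sites were in all 3 GR-cell lists, so a site short of that is common. At the GR cell's mean rate 0.594 peaks would have fallen in the FKBP4 window over the 3 MR/GR-cell lists, and 71.7% of all windows of 120 kb held no MR/GR-cell peak. That share takes in the 32.4% of windows without any treated site.

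HSP90AA1 had 0 peaks in each of the 6 treated lists and each of the 6 vehicle lists. Of all 18169 windows of 170 kb, assembly gaps included, 23.8% held no treated peak, so an empty window is common among them. Windows were not matched for gene content. The stretch without a treated site reached 276 kb below the window and 18.8 kb above it, 465 kb in all, and 0.878% of the 43645 gaps between neighbouring sites were at least as long, or 12.2% of the length between sites. The site that ended the stretch above the window was in 3 GR-cell lists and absent from those of the MR/GR cell, so the count of 0 depends on the window: with 50 kb added on each side the difference of MR/GR-cell minus GR-cell lists was -1.67 peaks per list (exact permutation p = 0.1, two-sided).

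RefSeq gives a pair of transcription starts for HSP90AA1. Of the stretches of 250 bases before these starts, only 1 matched any element searched for below. The 250 bases of that stretch are printed because the window, which covers the gene, had no GR peak in any list. They are from GRCh38.p14, chromosome 14, 102087045 to 102087294, minus strand, and the capitals mark a match to the heat shock element, the site of the heat shock factors that induce this gene, spelled GAANNTTCNNGAA and found here on the opposite strand.
HSP90AA1: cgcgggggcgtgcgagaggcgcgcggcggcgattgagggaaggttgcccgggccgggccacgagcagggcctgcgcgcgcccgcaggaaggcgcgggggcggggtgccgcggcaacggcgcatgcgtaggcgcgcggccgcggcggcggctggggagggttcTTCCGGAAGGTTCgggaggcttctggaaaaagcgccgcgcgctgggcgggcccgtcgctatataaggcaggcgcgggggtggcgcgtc
This element occurred, on either strand, in 0.441% of 35116 RefSeq upstream stretches of this length and in 1 of the 14 available for these genes (7 for NR3C1, 4 for NR3C2, 2 for HSP90AA1 and 1 for HSD11B1). None was available for FKBP4 or HSD11B2, and some stretches of the same gene overlap, so the 14 are not separate sequences. The receptor hexamer AGAACA, searched on both strands, was in 0 of the 14 and in 12.4% of all. The full palindrome made of it, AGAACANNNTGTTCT, was in 0 of the 14 and in 1 of 35116. The repressive element CTCCGGAGA with 0, 1 or 2 bases between its arms, on both strands, was in 0 of the 14 and in 1.43% of all. These letters are not in these stretches, which says nothing about elements elsewhere in the genes, and the sequence under the hg19 peaks was not read here.

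The HSD11B1 window was the only one of the 6 with a site of the MR/GR cell alone. The treated MR/GR-cell lists held 0, 1 and 1 peaks, against 1, 1 and 1 in the treated GR-cell lists, but the peaks were at different places. The MR/GR-cell site, chromosome 1, 209862045 to 209862373, was in lists 2 and 3, whose peaks were centred 35 bp apart, and no GR-cell list had a peak within 56 kb of it. The GR-cell site, 209918357 to 209918792, was in every GR-cell list and was not called in the MR/GR cell. The sites stood 56.4 kb apart. The MR/GR-cell site lay in the inner part, 2.21 kb inside its low-coordinate end, the side where transcription of HSD11B1 starts, and the GR-cell site in the outer 50 kb beyond the other end.

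Sites in at least 2 MR/GR-cell lists and no GR-cell list were rare, 0.764% of all 43713 sites (334), and the HSD11B1 site was 1 of the 13 in the windows. Of those 334 sites, 68.9% were in lists 2 and 3 without list 1, as here. List 1 is the shortest, so its lack of a peak may be one of length, which was not tested. A window of 150 kb that held both a site of this kind and one called in every list of the GR cell but never in the MR/GR cell was found 201 times in 20598, or 0.976%. This combined class was not planned and matches what the HSD11B1 window held, so its share is a description only. The count per list differed by -0.333 between MR/GR-cell and GR-cell lists (SE 0.333, exact permutation p = 1, two-sided). Per 10000 listed peaks the direction was the opposite, with 0, 0.956 and 1.502 in the MR/GR-cell lists and 0.266, 0.323 and 0.382 in the GR-cell lists, which overlap (difference 0.496, SE 0.440, exact permutation p = 0.4, two-sided).

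The 250 bases before the start of HSD11B1 given by RefSeq are printed because the MR/GR-cell site lay on that side of the gene. They are from GRCh38.p14, chromosome 1, 209685929 to 209686178, plus strand, and carry no capitals because none of the motifs searched was in them.
HSD11B1: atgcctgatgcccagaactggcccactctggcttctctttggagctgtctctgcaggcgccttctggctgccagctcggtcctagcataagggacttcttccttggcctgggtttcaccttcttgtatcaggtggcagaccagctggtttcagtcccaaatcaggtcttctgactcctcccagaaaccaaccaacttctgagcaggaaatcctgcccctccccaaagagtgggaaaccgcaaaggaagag
The distance from the hg19 peaks to this stretch is not given, since the builds differ.

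HSD11B2 had the densest binding and the only site called in all treated lists. Treated MR/GR-cell lists held 1, 2 and 1 peaks, against 3, 2 and 2 in treated GR-cell lists, and the lines overlap at 2 (difference -1, SE 0.471, exact permutation p = 0.3, two-sided). The site of all 6 lists was chromosome 16, 67517850 to 67518311, in the outer part of the window, 11.9 kb inside its high-coordinate edge. The site at 67457565 to 67457995 was in 3 GR-cell lists and in MR/GR-cell list 2, and lay 2.22 kb outside the inner part at its low-coordinate end. Another site was in GR-cell list 1 alone. At the site of all 6 lists the mean peak centre of the MR/GR-cell lists was 47 bp below that of the GR-cell lists, with a spread of 85 bp among MR/GR-cell centres and 35 bp among GR-cell centres. Over all 3017 sites of 6 lists the median of this offset was 17 bp, and 10.3% had one at least as large. Of all 43713 sites, 6.9% were in all 6 lists.

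Scaled to list length, the HSD11B2 window was the one in which every MR/GR-cell list stood above every GR-cell list. They had 2.69, 1.91 and 1.502 peaks per 10000 listed, against 0.797, 0.647 and 0.764 in the GR-cell lists. All MR/GR-cell values were higher (difference 1.30, SE 0.352, two-sided exact permutation p = 0.1, which is the minimum, adjusted p = 0.295), and 7.69% of all 25746 windows of 120 kb were separated in that direction. These rates rest on 4 peaks in the MR/GR cell and 7 in the GR cell, all in the outer 50 kb of the window, and no site was assigned to a gene. At least 4 MR/GR-cell peaks were found in 7.05% of windows of this length and at least 3 sites in 26.2%.

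**Figure D2:**
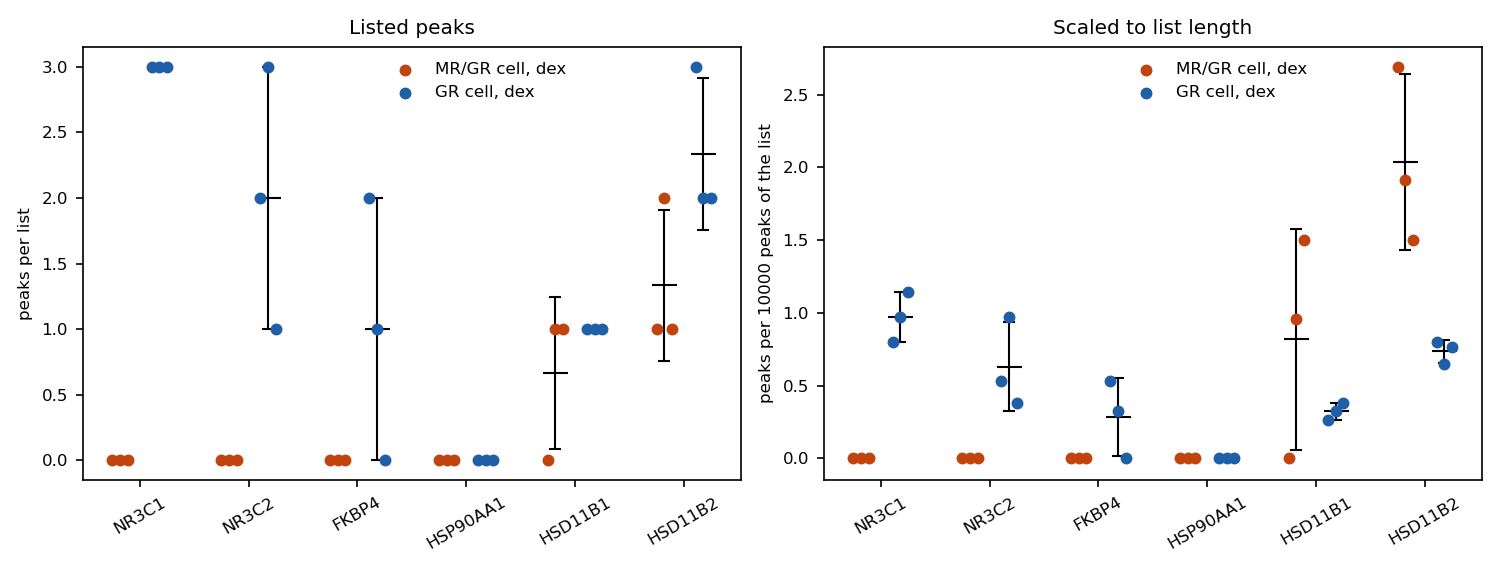
Peaks of the 3 treated lists of each line in the 6 windows, as listed (left) and per 10000 peaks of the list (right). Points are lists, and bars are the mean with 1 SD (n = 3 lists). MR/GR-cell lists were at 0 for NR3C1, NR3C2, FKBP4 and HSP90AA1 on both scales, and for HSD11B2 they lay at 1 to 2 peaks as listed and at 1.502 to 2.69 per 10000, above the 0.647 to 0.797 of the GR-cell lists.

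The response to dexamethasone was tested for each window. In the GR cell, treated lists were above all vehicle lists (0, 0 and 0 peaks in every window) at NR3C1, NR3C2, HSD11B1 and HSD11B2, each with exact permutation p = 0.1, two-sided. In the MR/GR cell this held for HSD11B2 alone. Of all windows of the matching lengths, 72.9% (270 kb), 83.8% (470 kb), 56.2% (150 kb) and 49.8% (120 kb) showed that separation in the GR cell, and 10.3% of windows of 120 kb in the MR/GR cell. With treatments permuted within each line, HSD11B2 had 1.83 more peaks per list with dexamethasone than with vehicle over both lines (exact permutation p = 0.005, two-sided, the smallest that 400 arrangements allow). Vehicle lists held at most 238 peaks in the whole genome, and any window with a peak in all 6 treated lists and none in a vehicle list reaches this p whatever its counts. After adjustment over 25747 windows p was 0.0496, and 10.1% of the windows passed 0.05. Repeated after the data were seen, the adjustment gave 0.0312 to 0.0498 with a treated list left out, 0.0560 to 0.0650 with any 1 of the 6 vehicle lists left out, and 0.309 with the list number as a block, so the call at 0.05 was lost under the block and when any single vehicle list was left out. All HSD11B2 sites lay in the outer 50 kb, and with windows narrowed to the inner part the value was 0. HSD11B1 gave 0.833 (exact permutation p = 0.02, adjusted p = 0.0981), NR3C1 1.5 and NR3C2 1 (exact permutation p = 0.1 each), FKBP4 0.5 (exact permutation p = 0.4; 0.25 without GR-cell list 1) and HSP90AA1 0. The test of a difference between the lines in this response could not pass 0.05. With 0 peaks in every vehicle list, it repeats the comparison of treated lists, 3 against 3. Its lowest exact permutation p was 0.1, for NR3C1 and NR3C2, whose responses were 0 and 0 in the MR/GR cell, against 3 and 2 in the GR cell.

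Over all 6 windows, the classes of sites were set beside those of the whole genome. The MR/GR cell held 2 of the 13 sites (15.4%) with at least 2 of its 3 lists, against 13.6% of all sites, and the GR cell held 9 (69.2%), against 69.5%. Both lines held 1 site (7.69%), against 12.4%. Sites called in all 3 lists of the GR cell but never in the MR/GR cell numbered 5 (38.5%), against 34.4%. There were 7 sites with 3 of 3 GR-cell lists: at least 2 lists of the MR/GR cell had 1 of them (14.3%), against 22.5% over the genome (22935 sites), and 5 (71.4%) were never called there, against 65.6%. At the GR cell's rates the MR/GR-cell lists would have held 6.13 peaks in the 6 windows together, and held 6. Within that total they held 0 peaks at the receptor genes, where those rates give 2.02 for NR3C1 and 1.31 for NR3C2, and 2 at HSD11B1 and 4 at HSD11B2, where they give 0.674 and 1.53. No MR/GR-cell peak was found in 52.4% of all windows of 270 kb (NR3C1) and 37.6% of those of 470 kb (NR3C2), windows without any treated site included. At least as many MR/GR-cell peaks as seen were in 22.7% of windows of 150 kb (HSD11B1) and 7.05% of those of 120 kb (HSD11B2). Members of a class share lists, and no test was made over the 13 sites.

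**Figure D3:**
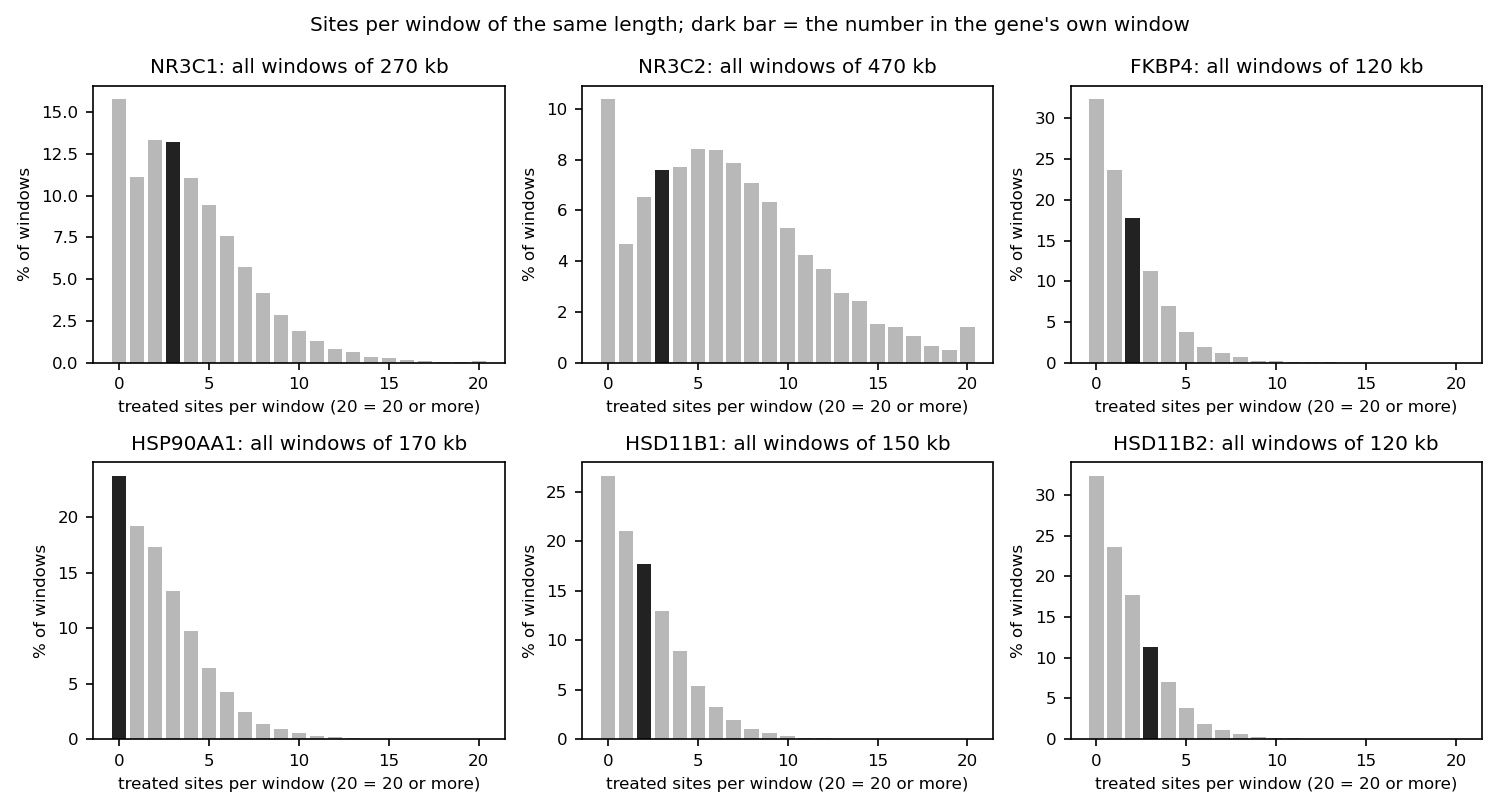
Treated sites per window (x axis) and the share of all non-overlapping windows of the same length with that number (y axis, in percent), for each of the 6 lengths. The dark bar is the number in the gene's own window: 3 for NR3C1, NR3C2 and HSD11B2, 2 for FKBP4 and HSD11B1, and 0 for HSP90AA1, all among numbers that many windows share.

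The sites in these windows had no close neighbour. None of the 13 had another treated site within 10 kb, against 39.3% of all sites, and the median distance to the next site was 41.8 kb, against 14.6 kb over all sites. Several of the 13 were each other's nearest site, so these are not 13 separate distances, and no test was made. Peak centres of GR-cell lists at 1 site lay 35 to 139 bp apart, the widest spreads being those of the NR3C1 sites (115 to 139 bp).

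**Figure D4:**
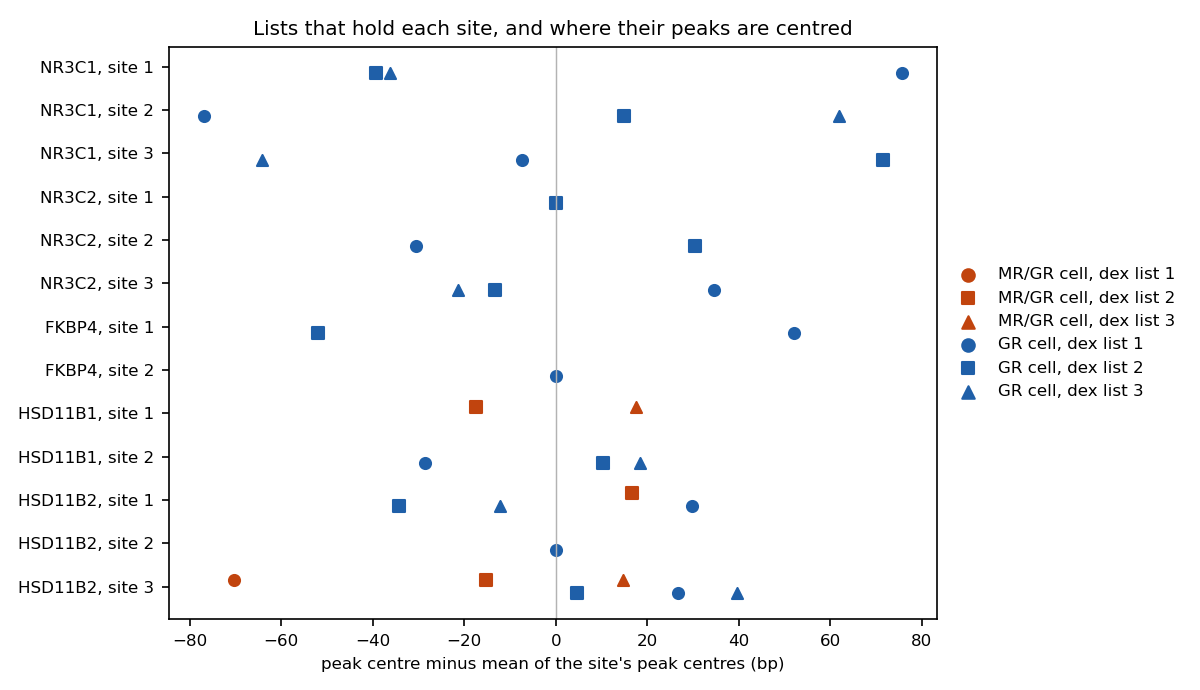
Peak centres in each of the 13 sites, as the distance in bp from the mean centre of the site's peaks. Colour marks the line and shape the list, and sites are numbered by coordinate within a window. Site 3 of HSD11B2 holds all 6 lists, site 1 of HSD11B1 holds MR/GR-cell lists 2 and 3 only, and the 3 sites of NR3C1 hold all GR-cell lists with centres spread over 115 to 139 bp.

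The windows hold other genes, and no site was assigned to a gene. By order in RefSeq, NR3C1 lies between ARHGAP26 and HMHB1, NR3C2 between ARHGAP10 and IQCM, FKBP4 between CACNA1C and ITFG2, HSP90AA1 between DYNC1H1 and WDR20, HSD11B1 between G0S2 and TRAF3IP3, and HSD11B2 between ZDHHC1 and ATP6V0D1, with AGRP after the last. In the inner part of their windows, NR3C1, NR3C2 and HSD11B1 had sites, while all sites of FKBP4 and HSD11B2 lay in the outer 50 kb. The windows of FKBP4 and HSD11B2 were the shortest, at 120 kb, and so had the shortest inner parts. The nearest site lay 2.05 kb outside the inner part at FKBP4 and 2.22 kb outside it at HSD11B2. This contrast therefore depends on window length. Just outside the windows, sites of the GR cell alone, in all its lists, lay 6.71 kb below that of NR3C2, 10.5 kb above that of HSD11B2 and 19.4 kb below that of NR3C1, and a site of 2 GR-cell lists and 1 MR/GR-cell list lay 3.87 kb above that of HSD11B1. The site nearest to an edge from inside was the HSD11B2 site of all 6 lists, at 11.9 kb.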

How the data were processed

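The authors deposited, for each of 4 GR immunoprecipitations, 3 lists of peak positions (other values: chromosome, start and end, with no score). Per the submitters' processing notes the build was hg19, and the tools named are HOMER 4.8.3, Picard 1.115, SAMtools 1.3.1, Bowtie and Trim Galore 0.4. Their settings are not given in the sources used here. List names set each list against input, and the 2 input samples (1 a line, with different treatments) were not analysed here.

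Overlapping peaks (at least 1 bp) of the 6 treated lists were merged into sites, and a line held a site with at least 2 of 3 lists. Coordinates count from 1. Peaks per window were compared by exact permutation tests, two-sided. In place of the planned adjustment over the 6 windows, Benjamini-Hochberg adjustment ran over all non-overlapping windows of the same length, laid from each chromosome's start to its last treated peak (assembly gaps included), and the gene's own window. Merging and site calls were run on simulated lists with the peak widths of the treated lists, and 100% of 19893 simulated sites came back with the right lists. In these lists peaks of 1 site always overlapped and separate sites never did. The run therefore checks the code only, and not how close or spread sites of the data were merged. Every site in at least 2 lists of a line is named by position, and the 6 genes were named by rule. Genes, windows and tests were chosen with earlier results of these data known. A planned list of further chaperone, co-factor and receptor genes needs hg19 gene positions and was not analysed here. Upstream sequences are RefSeq's, on GRCh38.p14. Python 3.11.15, numpy 2.4.6, pandas 2.3.3, matplotlib 3.10.9 and bedtools 2.31.1 were used.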

Additional observations from a re-analysis of the deposited data

How the results depend on the processing

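Of 313 alternatives, 285 kept the direction and side of 0.05, or a count within 1.5 times, and exact tests of 3 lists against 3 cannot pass 0.05. Where both groups held 0 peaks, as at HSP90AA1, leaving out a list could change nothing. Such alternatives are among the 285, so that count is no measure of robustness. Peaks per 10000 listed turned the difference of MR/GR-cell minus GR-cell lists to 0.496 at HSD11B1 and 1.30 at HSD11B2, which a larger divisor for the GR-cell lists produces. Windows narrowed by 50 kb a side turned it to 0.667 at HSD11B1 and left 0 at FKBP4 and HSD11B2, whose sites all fell outside. Narrowing likewise left the response to dexamethasone at 0 for FKBP4 and HSD11B1 in the GR cell, at 0 for HSD11B2 in either line, and over both lines at 0 for FKBP4 and HSD11B2 and 0.333 for HSD11B1. Windows widened by 50 kb a side gave HSP90AA1 a difference of -1.67 and responses of 1.67 in the GR cell and 0.833 over both lines. Leaving out 1 list moved the HSD11B1 difference between -0.500 and 0 (0 without MR/GR list 1), the FKBP4 difference between -1.5 (without GR list 3) and -0.5 (without GR list 1), the FKBP4 response between 0.5 and 1.5 in the GR cell and between 0.25 and 0.75 over both lines, and the sites held by the MR/GR cell between 1 and 2 (1 without list 2 or 3). That count was 1 with 3 of 3 lists required, and sites of both lines numbered 2 with 1 list enough. With the list number as a block, treated and vehicle lists of the same number were paired and the signs of their differences flipped. The response over both lines stayed 0.833 at HSD11B1 (exact sign-flip p = 0.0625). At HSD11B2 it stayed 1.83 (exact sign-flip p = 0.03125, the smallest possible there, or 0.309 adjusted over all windows). The adjusted p of HSD11B2, 0.0496 as reported, lay between 0.0312 and 0.0650 with 1 list left out. Both adjustments were added after seeing the data. Treated lists of the lines with the same number had correlations of -0.0249 to 0.103, within the -0.126 to 0.111 of lists with different numbers, so the numbers were not taken as pairs between the lines. Treated and vehicle lists of the same number were not compared in this way. These values were used for pairing only, and do not measure how many sites the lines share. Depth is unknown and limits every count of 0.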
